A study of Mus musculus with 10 samples.

Results

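The centrosome is the main microtubule-organising centre of animal cells. A pair of centrioles at its core is surrounded by a pericentriolar matrix, in which gamma-tubulin ring complexes start new microtubules, and a centriole can also dock at the cell membrane and become the base of a cilium or flagellum. In the male germ line the centrioles build the sperm tail during spermatid maturation, and in the mouse they then degenerate, so that the mature sperm carries no intact centriole. The genes described here were the known mRNAs whose symbol begins with Cep, Haus, Plk or Tubg and a digit, or with Tubgcp or Cetn, together with Sass6, Pcnt and Cntrob. The rule found 60 genes with 71 transcripts among 16082 known mRNA genes. It used names alone and no measured value.

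Total RNA was sequenced from mature sperm and from testes of C57BL/6 mice aged 3 to 5 months, after depletion of ribosomal RNA. Control mice had received a single intraperitoneal injection of saline, and cadmium mice a single injection of CdCl2 at 3 mg/kg, and both were killed on day 35. There were 4 control sperm pools, 2 control testes samples, 2 cadmium sperm pools and 2 cadmium testes samples. Each sperm sample was a pool from several mice, taken from the vas deferens and caudal epididymis and treated with a lysis buffer that removes somatic cells. Testes samples were whole tissue, with germ cells of every stage and somatic cells. The fits reported here left out control sperm pool 1, as the study did, and its values are printed beside the others. According to the study's methods the control testes came from the mice that gave the control sperm.

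Depth differed between the tissues. Totals ran from 366455 to 1254477 expected counts in sperm and from 2606086 to 2866856 in testes, so that 3 counts, the limit which a count of 0 allows, corresponded to 2.39 to 8.19 CPM (counts scaled to the library total) in sperm and 1.05 to 1.15 CPM in testes. These limits cover counting error only. Counts printed below are not scaled for this difference in depth, whereas CPM, FPKM and fold changes are. Prm2, a protamine of late spermatids and sperm, had 45 to 291 counts in the sperm pools and 220 to 465 in testes. Prm1 had 0 to 10 in sperm against 116 to 128 in testes. The whole list of 10 late spermatid and sperm markers summed to 144 to 352 CPM in sperm and 248 to 311 CPM in testes. Spermatogonia markers summed to 1.89 to 16.5 CPM in sperm and 86.5 to 122 CPM in testes. Gfra1 alone had 242 to 321 counts in the testes samples, whereas Kit and Zbtb16 had at most 1. Markers of meiotic germ cells summed to 0 to 3.46 CPM in sperm and 10.5 to 16.7 CPM in testes, with 7 of the 9 listed ones at 0 in every sperm pool. The Sertoli cell list summed to 0 to 9.45 CPM in sperm against 37.3 to 47.0 CPM in testes, where Dhh alone had 93 to 114 counts. Summed epididymal epithelium markers reached 0 to 9.84 CPM in sperm and 1.05 to 19.2 CPM in testes. Leydig cell markers summed to 0 to 109 CPM in sperm and 44.3 to 65.2 CPM in testes, and the highest sperm value was that of control pool 3, where Star alone had 40 counts. Star had 0 to 28 counts in the other sperm pools. The leukocyte and vessel list summed to 0 to 6.92 CPM in sperm and 1.92 to 5.17 CPM in testes, through Cd4, Ptprc and Lyz2 alone. Its vessel genes Pecam1 and Cdh5, and Adgre1, were not listed in any sample. The part of these cells in the results was not tested.

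Some of the genes that were called between the tissues are shown first by the 250 bases before a RefSeq start site (GRCm38.p6, 5′ to 3′). The 3 windows are those of Tubg2, called higher in sperm in cadmium mice alone, of Cep290, called higher in both tissue comparisons, and of Cetn4. Cetn4 is a centrin listed in testes alone. Capitals mark a CCAAT box (CCAAT) or a GC box (GGGCGG) on either strand.
Tubg2, chr11:101155634-101155883, plus strand: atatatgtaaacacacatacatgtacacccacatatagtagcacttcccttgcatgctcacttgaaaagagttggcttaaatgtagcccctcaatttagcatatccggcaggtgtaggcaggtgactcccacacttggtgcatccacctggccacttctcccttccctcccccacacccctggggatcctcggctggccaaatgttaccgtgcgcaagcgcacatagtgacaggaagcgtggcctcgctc
Cep290, chr10:100487332-100487581, plus strand: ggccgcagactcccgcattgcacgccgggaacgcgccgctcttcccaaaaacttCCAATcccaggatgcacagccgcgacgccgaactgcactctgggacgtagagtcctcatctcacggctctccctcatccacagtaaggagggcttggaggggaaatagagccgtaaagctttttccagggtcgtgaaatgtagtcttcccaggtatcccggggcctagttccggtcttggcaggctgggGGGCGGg
Cetn4, chr3:37312447-37312696, minus strand: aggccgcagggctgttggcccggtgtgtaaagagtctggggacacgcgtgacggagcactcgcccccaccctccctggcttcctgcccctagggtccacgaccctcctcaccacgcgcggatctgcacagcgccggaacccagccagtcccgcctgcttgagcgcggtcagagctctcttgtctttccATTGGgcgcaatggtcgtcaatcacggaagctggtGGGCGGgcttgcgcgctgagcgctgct
The Cep290 and Cetn4 windows each held 1 CCAAT box and 1 GC box, and the Tubg2 window held neither. The gene coordinates printed below begin at 100487548 for Cep290 and at 101155874 for Tubg2. The ends of these 2 windows, with the GC box of Cep290, therefore lie within the gene coordinates. Over windows of 300 bases that included 50 transcribed bases, 37 of the 58 RefSeq promoters of 50 members held a GC box (63.8%), against 35.7% of all 32851 promoters. A CCAAT box was present in 24 of the 58 (41.4%), against 37.4% of all. The cell-cycle homology region (TTTGAA) was found in 13 (22.4%), against 17.9%. A cyclic AMP response element (TGACGTCA) was found in 4 (6.9%), those of Cep57, Haus5 and Plk2, against 1.79%. The X-box of ciliary genes was found in the promoter of Cep19 alone (1.72%), against 0.45%. Both strands were searched, no motif contains another, and these matches are descriptions of letters only.

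In every sample the 60 genes together took a small and similar share of the counts. Their summed level was 425 to 653 CPM in sperm and 403 to 510 CPM in testes, which was 0.397% to 0.498% of known mRNA counts in sperm and 0.358% to 0.44% in testes. The number of members listed above 0 differed much more. It was 8, 27, 8 and 19 in control sperm pools 1 to 4 and 31 and 27 in the cadmium sperm pools, against 49 and 51 in control testes and 48 and 48 in the cadmium testes. After thinning every library to the smallest total, 8.0 to 23.6 members were expected in sperm and 27.2 to 29.8 in testes, so the ranges still did not overlap. Before thinning, no sperm pool listed more than 34373 transcripts of all kinds, and no testes sample listed fewer than 47524. The gap before thinning was thus not particular to the members. Matching numbers after thinning were not worked out for all features.

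**Figure D1:**
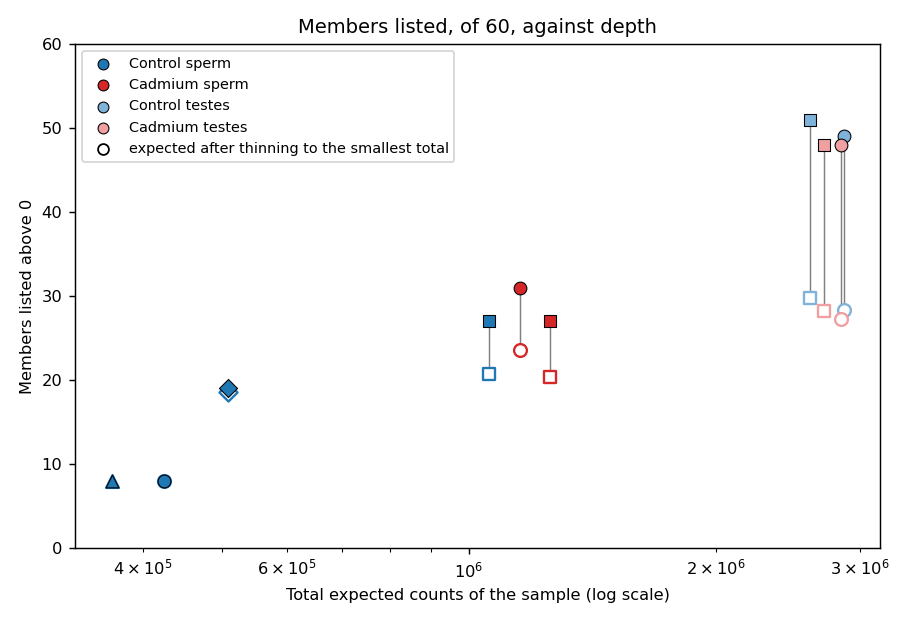
Number of the 60 members listed above 0 (y axis) against the total expected counts of each sample (x axis, log scale). Filled symbols are the observed numbers, open symbols the number expected after thinning to the smallest total, and symbol shapes mark the replicate number. The 4 testes samples lie between 48 and 51 before thinning and between 27.2 and 29.8 after it, above all 6 sperm pools.

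Counts were low for most members. Of the 60, 31 stayed under 10 expected counts in every sample and 8 reached 50 or more in at least 1. Only 5 members were listed in all 10 samples: Cep290, Cep350, Pcnt, Tubgcp4 and Tubgcp6. Another 20 were at 0 in all 6 sperm pools, and Cep295, Haus5 and Haus8 were at 0 in all 4 testes samples. The share of all features at 0 in this way was not worked out, and sperm pools listed fewer transcripts of all kinds. The 5 most abundant members of each sample held 69.5% to 92.9% of the member counts in sperm and 61.2% to 62.9% in testes. Cep290 alone made up 15.2% to 37.1% of the member counts in the sperm pools and 2.79% to 5.86% in the testes samples, without overlap.

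**Figure D2:**
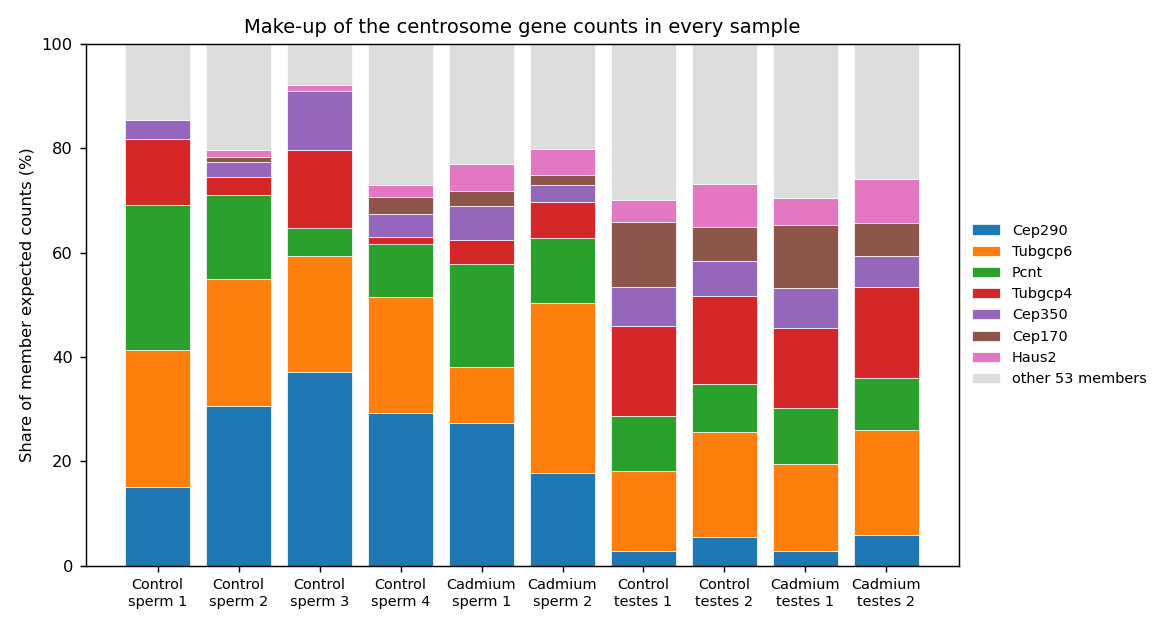
Share of the member expected counts (y axis, percent) taken by 7 members and by the other 53 together, in each of the 10 samples (x axis). The Cep290 segment spans 15.2% to 37.1% in the sperm pools and 2.79% to 5.86% in the testes samples.

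On the FPKM scale, a level adjusted for transcript length and library size, the 12 highest members in control testes and the 12 highest in control sperm pools 2 to 4 shared 8 genes: Tubgcp4, Tubgcp6, Pcnt, Plk1, Haus2, Cep85l, Cep290 and Cep350. Cep170, Cep57, Cetn4 and Haus4 were among the 12 in testes alone, and Cep63, Sass6, Tubg2 and Cep76 in sperm alone. Sass6 and Cep63 reached the sperm list through single pools, as Cep63 was 10.1 FPKM in control pool 3 and 0 in the other 3 control pools.

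Tissue comparisons asked which members were higher or lower in mature sperm than in testes. In bulk RNA, fewer cells of a type and less RNA per cell cannot be told apart. In control mice Cep290 was the single member called, at a Benjamini-Hochberg adjusted p under 0.05 in edgeR's quasi-likelihood test and a change of more than 2-fold. Of 33 members with enough counts to test, 1 was higher, 0 were lower, and 10 had an unadjusted p under 0.05. Such a p was given to 8888 of all 26072 features. DESeq2 also called 1. The split moved with the setting: edgeR called 2 higher and 5 lower with all 4 control pools, 2 higher and 6 lower in 1 fit of the 9 samples, 2 higher and 3 lower among genes at 1 FPKM or more in 2 samples, and 2 higher and 0 lower with library size alone, and limma on log2(FPKM + 0.1) called 2 higher and 5 lower. Over all features tested 7.21% were called in the fit reported here, 3.31% higher and 3.9% lower. With DESeq2 3035 of 26072 were called. The other settings called 5055 of 26580, 6185 of 26072, 5319 of 24432, 2555 of 26072 and 5650 of 26072 features, in the order given. In cadmium mice 33 members were tested, and 4 were higher (Tubg2, Cep76, Cep290 and Cep170b) and 2 lower (Cetn1 and Cetn4), where 25.8% of all features were called, 13.3% higher and 12.5% lower. DESeq2 called 3 higher and 1 lower there, without Cep170b (adjusted p = 0.116) and Cetn4 (0.118), and it called 4768 of 26858 features. The members' share of calls, 1 of 33 and 6 of 33, was therefore no larger than the background in either comparison.

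Levels per sample gave a similar view. In control mice 2 of the 33 members, Cep290 and Cep76, were higher in sperm pools 2 to 4 than in both testes samples without overlap in CPM, and 16 were lower; over all features these shares were 7.08% and 46.8%. In cadmium mice 6 members were higher without overlap (Cep170b, Cep290, Cep76, Haus6, Pcnt and Tubg2) and 14 lower, against 22.3% and 43.8% of all features. The median fitted log2 fold change of the members was -1.39 in control mice, against -1.08 over all features, and -0.45 against -0.44 in cadmium mice. With each group at 0 set to 3 counts, the median log2 ratio of pooled CPM was -1.20 for the members and -0.82 for all features in control mice, and -0.91 and -0.67 in cadmium mice.

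Cep290 encodes a protein of the ciliary transition zone, the gate between the base of the cilium and its shaft. The gene lies at chr10:100487548-100575671. Its FPKM was 8.83, 17.7, 21.2 and 15.5 in control sperm pools 1 to 4, 22.3 and 11.1 in the cadmium sperm pools, 1.66 and 3.45 in control testes, and 1.41 and 3.74 in the cadmium testes. Every sperm pool was above every testes sample, and the sperm groups overlapped each other. The log2 fold change of sperm over testes was 2.85 ± 0.87 (SE; 3 pools against 2 samples, edgeR adjusted p = 0.0218) in control mice and 2.80 ± 0.62 (2 against 2, edgeR adjusted p = 0.00165) in cadmium mice. Pooled counts gave 7.08-fold (95% counting interval 5.65 to 8.91) and 6.51-fold (5.23 to 8.14). The control call was lost in 5 of 15 alternatives, in edgeR without control sperm 2 (adjusted p = 0.128), without control sperm 4 (0.0683), without control testes 1 (0.354), with no count filter (0.118) and among known mRNA genes alone (0.113). The cadmium call was lost in 2 of 13, without cadmium sperm 2 (edgeR, 0.0962) and in limma on log2(FPKM + 0.1) (0.0849).

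Tubg2 encodes the second gamma-tubulin of mammals, next to the widely expressed Tubg1, at chr11:101155874-101161787. It was 0, 5.95, 0 and 2.26 FPKM in control sperm pools 1 to 4 and 18.8 and 10.5 FPKM in the cadmium sperm pools. In testes it was 0 in both control samples and 0 and 0.21 in the cadmium samples. Both cadmium pools were thus above all 8 other samples, while 2 of the 4 control pools were at 0, as most testes samples were. In counts this was 61 in cadmium sperm against 1 in cadmium testes, a ratio of 141 in CPM (95% counting interval 24.3 to 5643.5), and 13 in control pools 2 to 4 against 0 in control testes, at least 12.3-fold higher against 3 counts over the group. The fitted log2 fold change was 6.93 ± 0.95 in cadmium mice (2 against 2, edgeR adjusted p = 1.18e-05) and 6.28 ± 2.16 in control mice (3 against 2, edgeR adjusted p = 0.0501). The cadmium call held in all 13 alternatives run, and the control value passed the threshold in 6 of 14. Tubg1, whose gene ends 29450 bases before Tubg2 begins, had 1 count in control testes 2, 1 in cadmium sperm 1 and 0 in the other 8 samples. The counts of Tubg2 were whole numbers, within 0.001, in all samples.

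Cep76 encodes a protein that limits the reduplication of centrioles. Its counts were 0, 7, 5 and 3 in the control sperm pools, 18 and 16 in the cadmium sperm pools, 2 and 2 in control testes, and 1.75 and 3 in the cadmium testes. In FPKM this was 0, 1.67, 3.46 and 1.49, then 3.93 and 3.22, against 0.18, 0.19, 0.16 and 0.28 in testes, so that 5 of the 6 sperm pools were above all testes samples. The log2 fold change was 4.12 ± 0.84 in cadmium mice (2 against 2, edgeR adjusted p = 0.000731) and 3.50 ± 1.88 in control mice (3 against 2, edgeR adjusted p = 0.175). The cadmium call was lost without cadmium sperm 2 (edgeR adjusted p = 0.0557). Cep170b, a paralogue of the appendage protein Cep170, rested on 5 and 7 counts in cadmium sperm against 2 and 1 in cadmium testes, and its call at 3.36 ± 1.13 (2 against 2, edgeR adjusted p = 0.0303) was lost in 10 of 11 alternatives. In the control samples it had 3, 6, 0 and 0 counts in sperm and 1 and 4 in testes.

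**Figure D3:**
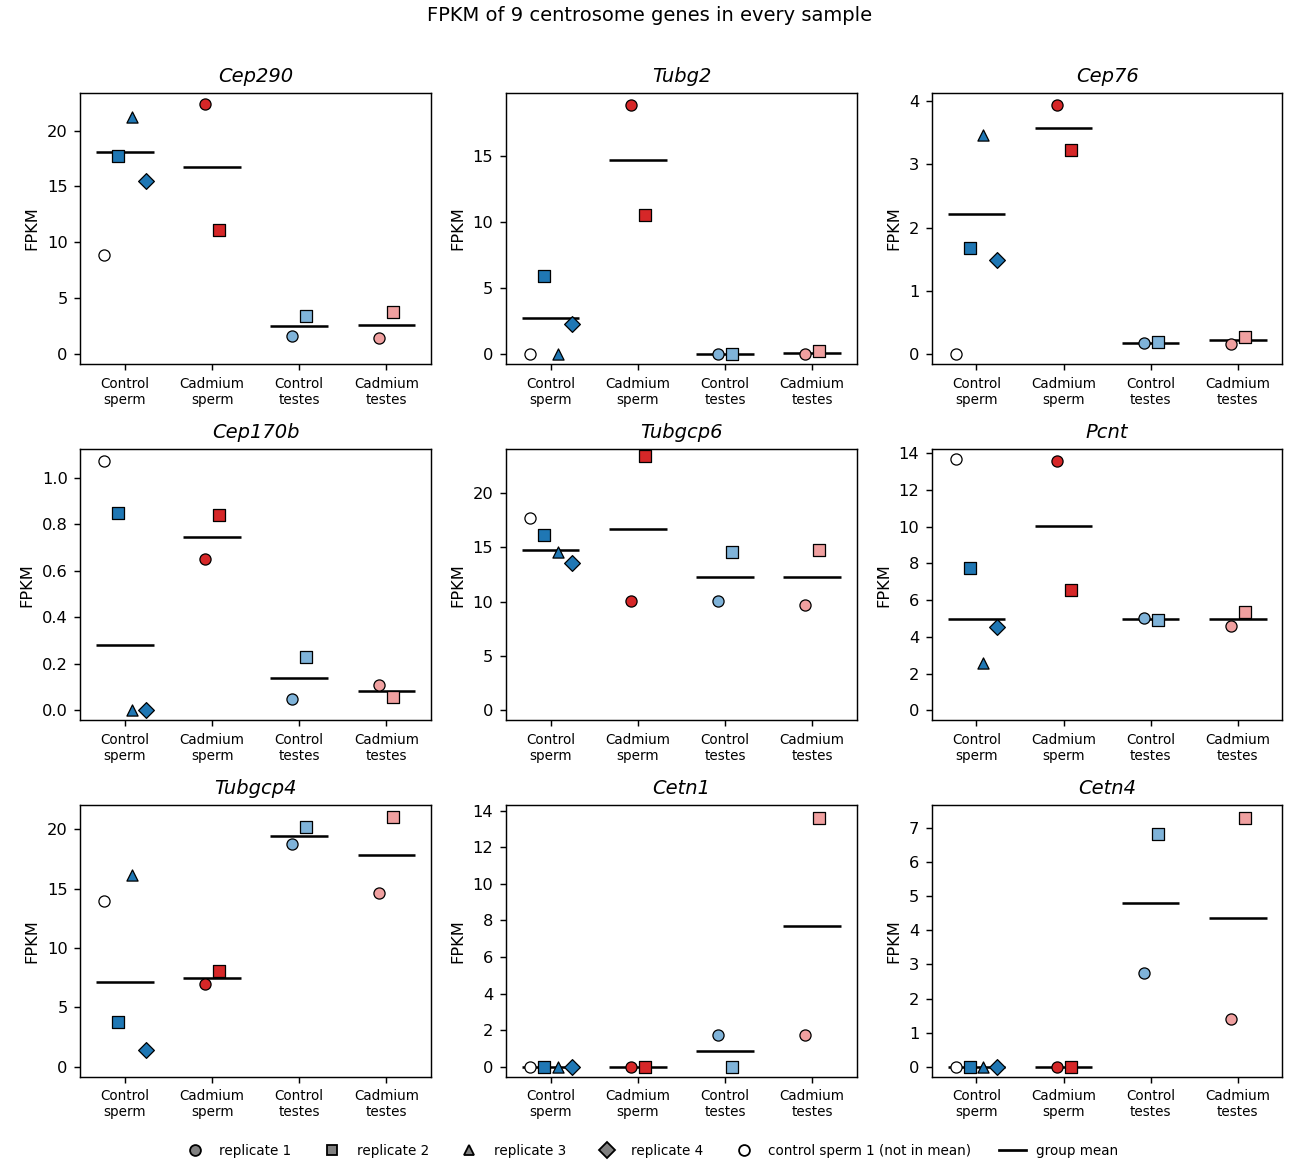
FPKM (y axis) of 9 members in each sample of the 4 groups (x axis). Points are samples, symbol shapes the replicate number, the open circle is control sperm pool 1, and lines are group means without that pool. Cep290 lies between 8.83 and 22.3 in sperm and between 1.41 and 3.74 in testes, whereas Cetn1 and Cetn4 are at 0 in all 6 sperm pools.

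Centrins are small calcium-binding proteins of the centriole lumen and the base of cilia. All 3 listed members, Cetn1, Cetn3 and Cetn4, were at 0 in every sperm pool. Cetn4 (chr3:37308627-37312446) had 8 and 18 counts in control testes and 4 and 20 in the cadmium testes, and was therefore at least 3.06-fold lower in control sperm and at least 3.47-fold lower in cadmium sperm against 3 counts over the group. It was called lower in cadmium mice (fitted log2 fold change -6.23 ± 2.23, 2 against 2, edgeR adjusted p = 0.0424) and was not called in control mice (-5.98 ± 2.53, 3 against 2, edgeR adjusted p = 0.102). Cetn1, the centrin known from male germ cells, had 5 and 0 counts in control testes and 5 and 37 in the cadmium testes. It was at least 6.07-fold lower in cadmium sperm (fitted -7.06 ± 2.09, 2 against 2, edgeR adjusted p = 0.0148) and had too few counts to be tested in control mice. The Cetn1 call was lost in 3 of 12 alternatives and the Cetn4 call in 6 of 12. Leaving out either cadmium sperm pool ended both calls, with fitted values of -7.18 and -7.27 for Cetn1 (edgeR adjusted p of 0.14 and 0.244) and -6.36 and -6.43 for Cetn4 (0.173 and 0.254). Cetn3 had 1 and 10 counts in control testes and 4 and 3 in the cadmium testes.

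The gamma-tubulin ring complex caps the minus end of microtubules, with Tubgcp2 and Tubgcp3 as its core subunits and Tubgcp4, Tubgcp5 and Tubgcp6 as further ones. Tubgcp6 was among the highest members in both tissues. It was 17.6, 16.2, 14.6 and 13.6 FPKM in the control sperm pools, 10.1 and 23.4 in the cadmium sperm pools, 10.0 and 14.5 in control testes, and 9.67 and 14.8 in the cadmium testes. The groups overlapped, and its log2 fold change of sperm over testes was 0.36 ± 0.78 in control mice (edgeR adjusted p = 0.787) and 0.71 ± 0.58 in cadmium mice (edgeR adjusted p = 0.388). Tubgcp4 was 14.0, 3.79, 16.2 and 1.39 FPKM in the control sperm pools and 6.94 and 8.09 in the cadmium sperm pools, against 18.7 and 20.2 in control testes and 14.6 and 21.1 in the cadmium testes. It ranged more than 10-fold among the control pools, and passed the threshold in control mice only without control sperm 3 (log2 fold change -2.66, edgeR adjusted p = 0.00895, against -1.51 and 0.253 with it).
The other subunits were near 0. Tubgcp3 had at most 3 counts in any sample and Tubgcp5 at most 2. Tubgcp2 was listed in control testes 2 alone, with 11.6 counts.

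Pcnt, the scaffold of the pericentriolar matrix, was 13.7, 7.76, 2.59 and 4.56 FPKM in the control sperm pools and 13.6 and 6.54 in the cadmium sperm pools. It was 5.04 and 4.94 FPKM in control testes and 4.60 and 5.33 in the cadmium testes. Testes samples lay close together, and the sperm pools spread around them. The log2 fold change was 0.25 ± 0.92 in control mice (edgeR adjusted p = 0.881) and 1.19 ± 0.54 in cadmium mice (edgeR adjusted p = 0.102). None of the 9 matrix and linker members tested in each tissue comparison was called. Over all features 7.21% were called in control mice and 25.8% in cadmium mice, and 9 genes are few to set against these shares. Cep350, which anchors microtubules at the centriole, had 7, 14, 19 and 9.62 counts in the control sperm pools and 97 and 87 in control testes, and its log2 fold change was -0.26 ± 1.08 (edgeR adjusted p = 0.896).

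Augmin, the complex of the 8 Haus proteins, brings gamma-tubulin rings to the sides of existing spindle microtubules. Its members were uneven. Haus2 had 56.2 and 109 counts in control testes and 60.7 and 118 in the cadmium testes, against 0, 6.15, 2 and 5.01 in control sperm and 38.4 and 30.4 in cadmium sperm. Haus6 had 8 and 5 counts in control testes, 6 and 5 in cadmium testes and 9 and 10 in cadmium sperm, and 2 in 1 control sperm pool. Haus4 had 8 and 12 counts in control testes, 14 and 9 in cadmium testes and at most 3 in sperm. Haus1, Haus3, Haus5, Haus7 and Haus8 never exceeded 6 counts. No Haus gene passed the test in either tissue comparison, in which 3 had enough counts and 7.21% and 25.8% of all features were called. The closest was Haus6 in cadmium mice (log2 fold change 2.23 ± 0.84, edgeR adjusted p = 0.053).

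Polo-like kinases drive centrosome maturation and mitosis (Plk1) and centriole duplication (Plk4), and Sass6 forms the cartwheel on which a new centriole is built. Plk1 had 64 and 55 counts in control testes and 69 and 47 in the cadmium testes, against 22, 10, 0 and 5 in control sperm and 5 and 15 in cadmium sperm. Its log2 fold change was -1.42 ± 1.36 in control mice (edgeR adjusted p = 0.496) and -1.01 ± 0.64 in cadmium mice (edgeR adjusted p = 0.251). Plk4 had 11 to 21 counts in testes and 0 to 4 in sperm, without overlap. Plk2 and Plk3 never exceeded 3 counts. Sass6 had 8.0 to 15.2 counts in testes and 0, 4.51, 0 and 15.1 in control sperm, the last in pool 4, and 2.20 and 2.19 in cadmium sperm. Scaled for depth, its log2 fold change was 1.24 ± 1.56 in control mice (edgeR adjusted p = 0.613) and -0.99 ± 1.04 in cadmium mice (edgeR adjusted p = 0.508). Cntrob, which marks the daughter centriole, had at most 5 counts, in control sperm pool 4.
Cep170 and Cep57 were on the testes list alone. Cep170 had 162 and 84.8 counts in control testes and 0, 5.32, 0 and 7 in control sperm, with a log2 fold change of -2.55 ± 1.23 (edgeR adjusted p = 0.129). Cep57, a partner of Cep63 in centriole assembly, had 18 and 21 counts in control testes and 0 in all 4 control sperm pools, at least 4.59-fold lower in pools 2 to 4 (fitted -6.47 ± 2.68, 3 against 2, edgeR adjusted p = 0.102). In cadmium sperm it had 6 and 6 counts. Cep85l, on both lists, was 13.1 and 8.71 CPM in control testes and 0, 10.2, 0 and 13.8 CPM in control sperm, and its log2 fold change was -0.11 ± 1.47 (edgeR adjusted p = 0.968).

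The control and cadmium tissue comparisons share no sample, so their values can be set side by side for the 31 members tested in both. The sign was the same for 23 of them (74.2%), positive for 8 and negative for 15, against 80.8% of all features tested in both. Part of this was fixed beforehand, as Cetn4 and Cep95, at 0 in every sperm pool, could only be negative. Tubg2, at 0 in both control testes samples, could only be positive in control mice. Across these 31 genes Pearson's r was 0.65 and Spearman's rho 0.58, against 0.73 and 0.73 across all features. Genes of one library share its depth and scaling and are not independent. Cep290, Tubg2, Cep76 and Cep170b were the 4 farthest up in cadmium mice and were positive in control mice, relative to the median of all features by 3.93, 7.36, 4.58 and 2.66 on the log2 scale in control mice and by 3.24, 7.37, 4.56 and 3.80 in cadmium mice.

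**Figure D4:**
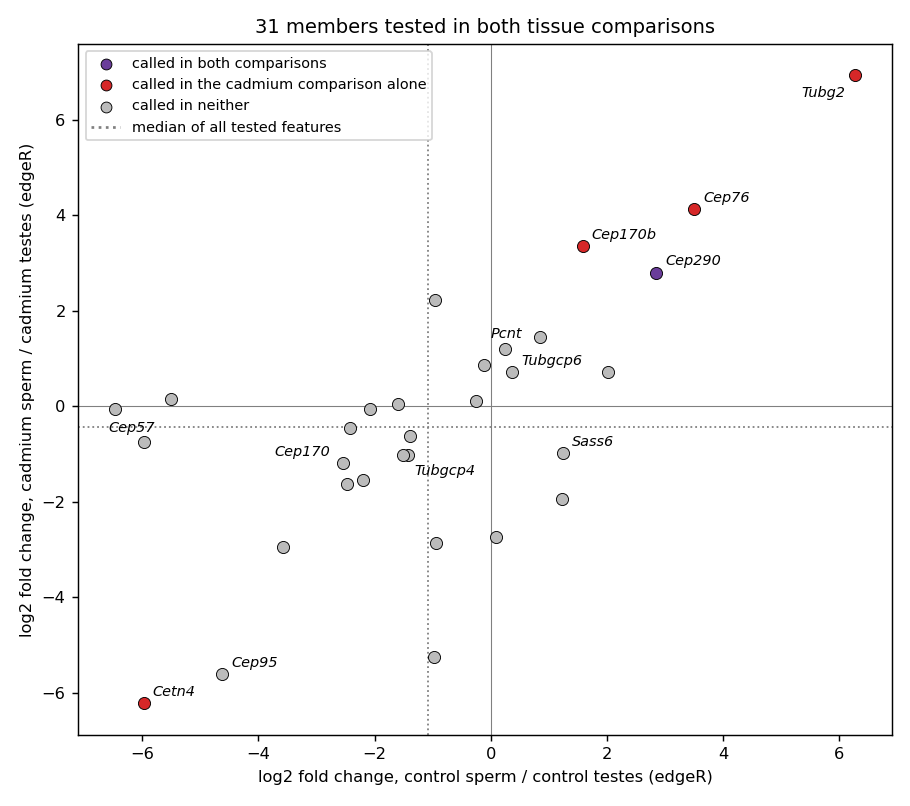
Fitted log2 fold change of sperm over testes in control mice (x axis) and in cadmium mice (y axis) for the 31 members tested in both comparisons. Colours show in which comparison a member was called, and dotted lines are the medians over all features, -1.08 and -0.44. Cep290 is the point called in both, and Tubg2 lies farthest up and right at 6.28 and 6.93.

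Cadmium comparisons asked whether the members differed between injected and control mice. No member passed the test in testes. Of 37 tested, edgeR called 0, with 2 at an unadjusted p under 0.05 (Cetn1 and Tubgcp2), and DESeq2 called 0, with 1 at an unadjusted p under 0.05; 0% of all features were called by edgeR. Of all 30374 features 377 had an unadjusted p under 0.05 in edgeR and 109 in DESeq2. The median log2 fold change of the members was -0.06, and that of all features was 0.01. For the abundant members the values lay close to 0: 0.06 ± 0.52 for Tubgcp6, -0.03 ± 0.49 for Tubgcp4, 0.08 ± 0.46 for Pcnt and 0.09 ± 0.66 for Cep290. Without overlap, 3 members were higher and 6 lower (Cep126, Cep162, Cep350, Cep41, Cep85 and Sass6), against 8.4% and 10.6% of all features.

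Cetn1 had the highest positive fitted value in testes, 3.29 ± 1.17 (2 against 2, edgeR unadjusted p = 0.017, adjusted p of 1.0). It rested on cadmium testes 2, with 37 counts against 5 in cadmium testes 1 and 5 and 0 in control testes 1 and 2. Without cadmium testes 1 the fitted value of Cetn1 was 4.16, where cadmium testes 2 stands alone and is assumed to vary like the control samples. With the replicate number as a block it passed the threshold (2.79, edgeR adjusted p = 0.00466). That fit called 155 of all 30374 features. The epididymal gene Adam7 had 1 and 11 counts in control testes and 0 and 33 in the cadmium testes, so that sample was also the highest in epididymal markers, whose part in the Cetn1 value was not tested. Tubgcp2, listed in 1 control sample alone, had the lowest fitted value, -5.79 ± 2.39 (2 against 2, edgeR unadjusted p = 0.0355, adjusted p of 1.0), which depends on the prior count.

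In sperm 18 members were tested for cadmium. Of all 16924 features 743 had an unadjusted p under 0.05 in edgeR and 362 in DESeq2. Calls by edgeR made up 0.112% of all features. Among the members the test called 0, with 1 at an unadjusted p under 0.05, and DESeq2 called 0, with 0 at an unadjusted p under 0.05. The 1 member was Cep57, with 0 counts in all control pools and 6 and 6 in the cadmium pools, at least 3.21-fold higher against 3 counts over pools 2 to 4 (edgeR adjusted p = 0.876). Tubg2 was 3.76-fold higher in pooled CPM (95% counting interval 2.05 to 7.47), but with the spread between pools its log2 fold change was 2.13 ± 1.43 (3 against 2, edgeR adjusted p of 1.0). Cep57, Haus2, Haus6 and Tubg2 were higher in both cadmium pools than in control pools 2 to 4, 4 members of 18, where 20% of all features were higher in this way. No member was lower without overlap, against 2.17% of features. Both cadmium pools were deeper than every control pool, 1155491 and 1254477 counts against 366455 to 1058017, and Cd4 had 6 and 4 counts in the cadmium pools against 0 to 2 in the control pools, Crisp1 4 and 4 against 0, and Cdh1 1 and 3 against 0. The whole lists summed to 3.19 to 6.92 CPM (leukocyte and vessel, with no vessel gene listed) and 4.33 to 6.38 CPM (epididymal) in cadmium sperm. In control sperm they summed to 0 to 1.89 and 0 to 9.84 CPM. The part of depth and of other cells in these values was not tested. Whether cadmium acted differently in the tissues was tested in 1 model of 9 samples. Of 42 members edgeR called 0, with 1 at an unadjusted p under 0.05, and DESeq2 called 0, with 1 at an unadjusted p under 0.05. Of all 34722 features edgeR called 0.00864%, with 1311 at an unadjusted p under 0.05, against 598 in DESeq2.

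Several members have more than 1 transcript, and the deposited counts could move between near-identical models. All Plk4 counts were given to NM_173169 in 5 of the 6 samples that listed the gene and, in cadmium testes 2, all 21 to NM_011495. Haus2 counts were mostly given to NM_001290808 in 7 samples and to NM_025475 in cadmium sperm 2 and cadmium testes 1. Gene sums, which all values above use, do not depend on this split, whereas FPKM does through transcript length.

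A list of 35 other centrosome genes, outside the naming rule, gave the surroundings. It summed to 65.9 to 145 CPM in sperm and 152 to 241 CPM in testes, without overlap. In control mice 21 were tested and 0 called by edgeR, with 6 at an unadjusted p under 0.05, and DESeq2 called 0 too. Of all 26072 features edgeR called 7.21% and gave 8888 an unadjusted p under 0.05. In cadmium mice 19 were tested, and edgeR called 1 higher and 3 lower, whereas DESeq2 called 0, as did edgeR without cadmium sperm 1, without cadmium sperm 2, without cadmium testes 2 and in 1 fit of the 9 samples, and limma on log2(FPKM + 1). Over all features of this comparison edgeR called 25.8% and DESeq2 4768 of 26858. The higher gene of the list was Kif24, a kinesin that limits cilium growth (log2 fold change 2.38 ± 0.83, edgeR adjusted p = 0.0359). The lower ones were Nek2, a kinase that separates centrosomes (-6.35 ± 1.99, edgeR adjusted p = 0.0209), Pcm1, the scaffold of centriolar satellites (-6.23 ± 2.23, edgeR adjusted p = 0.0424), and Ttbk2, a kinase that starts cilium assembly (-1.76 ± 0.62, edgeR adjusted p = 0.0366). Nek2 and Pcm1 were at 0 in all 6 sperm pools, like the centrins, so their fitted values depend on the prior count. In the cadmium testes Nek2 had 19 and 11 counts and Pcm1 had 3.78 and 20. Odf2, a component of centriole appendages and of the outer dense fibres of the sperm tail, was the most abundant of the list, with 12 to 94 counts in sperm and 180 to 338 in testes, and its log2 fold change was -0.82 ± 0.81 in control mice (edgeR adjusted p = 0.509).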

How the data were processed

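Total RNA of 6 sperm pools and 4 testes samples was depleted of ribosomal RNA and sequenced in pairs with a stranded library. The authors deposited, for each sample and transcript, an estimated (expected) count and an FPKM value. The study's methods name SOAPaligner/SOAP2, the submitters' processing notes list HISAT and mm10, and the tool that gave the expected counts is not given in the sources used here. Values were summed per gene. Expected counts of 69572 genes and lncRNA genes, rounded to whole numbers, were tested with edgeR 4.0.16 (quasi-likelihood, TMM scaling, summed count of at least 10, Benjamini-Hochberg over all features). A call needed an adjusted p under 0.05 and more than 2-fold. SEs were worked back from the test statistic. Each comparison was fitted alone, and the difference between tissues in 1 model. DESeq2 1.42.0, limma 3.58.1 and the other settings named below were alternatives, and the edgeR step was tested on simulated data.

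Groups and replicate numbers came from the labels, which do not say whether numbers mark shared animals. Deviations of same-numbered samples correlated at 0.657 between control and cadmium testes, and at -0.11 to 0.166 in the other comparisons. The study calls the 2 control testes samples biological replicates, and how many animals each testes sample holds is not given in the sources used here, so p-values measure the spread between these samples. Counting intervals treat expected counts as independent reads. Overlap between members and lncRNA models was not checked, and reads shared between them, or between near-identical transcripts, could be split differently.

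The members and gene lists were chosen with earlier results of these data known. Named genes are every member called in a comparison, the 12 with the highest mean FPKM in control testes and in control sperm pools 2 to 4, and all of the Tubg, Tubgcp, Cetn, Plk and Haus families with Sass6, Pcnt and Cntrob; other members named for a count of 6 or fewer were chosen after their values were seen. RefSeq names and promoters are from GRCm38.p6, and all 60 members matched by accession. A further item is not reported here.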

Additional observations from a re-analysis of the deposited data

Results flagged for a closer look

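Cep350 in the control sperm pools had a sample far from the others. It was 3.89 FPKM in pool 3, against 1.24, 0.99 and 1.42 in pools 1, 2 and 4. The corresponding counts were 19, 7, 14 and 9.62, and pool 3 had the smallest total of all samples. The other values checked over these 4 pools, 7 in all, did not stand apart in this way: the FPKM of the 4 further members listed in every pool, the summed member CPM and the number of members listed. Chance marks about 1 in 20 groups.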

How the results depend on the processing

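Of 285 values under alternatives, 217 kept their direction and side of the threshold (counts within 1.5 times), 22 gained and 27 lost the threshold, 19 counts moved and 0 reversed. Members called in the control tissue comparison (1 in the report) were 2 with library size alone, 0 with no count filter, 5 with at least 1 FPKM in at least 2 samples, 4 and 7 with limma on log2(FPKM + 1) and log2(FPKM + 0.1), 0 among known mRNA genes alone, 7 with all 4 control sperm pools, 8 in 1 fit of the 9 samples, and 0 to 3 leaving out 1 replicate each, 0 without control sperm 2 or control testes 1. In the cadmium tissue comparison (6) they were 3 with limma on log2(FPKM + 1) and 1 to 5 leaving out 1 replicate, 1 without cadmium sperm 2 and 3 without cadmium sperm 1 or cadmium testes 2. In cadmium against control testes (0) they were 0 to 1 leaving out 1 replicate, the 1 being Cetn1. Calls over all features moved as well. In the control tissue comparison they were 5055 of 26580 with all 4 control sperm pools, 6185 of 26072 in 1 fit of the 9 samples and 271 of 24508 without control sperm 2. In the cadmium tissue comparison they were 5957 of 26858 with limma on log2(FPKM + 1). The cause was not tested. Members listed per testes sample (median 48.5) were 28 with at least 5 counts and 28.3 after thinning, which follows from the stricter limit and the smaller total.

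With the replicate number as a block, Cetn1 was called in cadmium against control testes (1 member), where 155 of all 30374 features were called. In the cadmium tissue comparison the block called 5, gaining Pcnt (adjusted p = 0.0334) and losing Cetn4 (0.0659) and Cep170b (0.0902). There 7007 of all 26858 features were called. The block left 1 member called in the control tissue comparison with all 4 pools, where 1353 of all 26580 features were called. In the other comparisons it called 0 members. With 2 pairs the numbers cannot be taken to pair samples.

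The median log2 fold change of all features in the control tissue comparison was -1.08 with TMM, -1.35 with library size and -1.53 with DESeq2. The split of higher and lower calls over all features was 862 and 1018, 972 and 1583, and 1069 and 1966 in the same order, and in the cadmium tissue comparison 3559 and 3361 with TMM against 3232 and 4631 with library size. At 3 counts as the limit, members under 2.39 to 8.19 CPM in sperm were not measurable in single pools.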

Other observations

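Members also differed between testes samples of different number. In both treatments 12 of the 37 members tested in testes were higher in the samples numbered 2 than in those numbered 1 (32.4%, against 23.9% of known mRNA genes and 16.4% of all features), among them Cep290, Cetn4, Haus2, Plk4, Tubgcp4 and Tubgcp6, and 8 were higher in those numbered 1 (21.6%, against 29.4% and 44.2%), among them Cep170, Cep250, Cep68 and Plk1. Haus2 had 56.2 and 60.7 counts in the samples numbered 1 and 109 and 118 in those numbered 2, and Cep250 had 37 and 31 against 8.46 and 11. The comparison of cadmium with control testes had 1 sample of each number on both sides.

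Control sperm pools differed in which members they listed. Of the 60 members, 16 were listed in 1 of the 4 control pools and 11 in 2 or 3, with 5 in all 4. Transcripts of all kinds listed in these pools ran from 7721 to 30072, and the matching shares over all features were not worked out.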
